A study of Mus musculus with 12 samples.

Results

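The 82 genes described here are those whose name on the array follows the form of a cytosolic ribosomal protein gene (Rpl, Rps or Rplp and a number), without the kinases named Rps6k. The rule takes them by name alone from 27745 names on the array, though it was set with earlier results of these data known. All 82 had a probe that passed the filter on dim signal, among 15278 genes tested. By name, 43 encode proteins of the large subunit, 30 proteins of the small subunit and 3 the acidic stalk proteins. Another 5 encode second copies of a ribosomal protein. The remaining name, Rps19bp1, belongs to a protein that binds Rps19 and is not itself a ribosomal protein; it was kept because the name rule takes it.

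The study compared 4 groups of 3 arrays: KO denervated, KO control, WT denervated and WT control. KO stands for Smad4 knockout and WT for wild-type. All muscles were whole gastrocnemius, a calf muscle, of adult male CD1 mice, and denervated muscles were taken after 14 days without nerve supply. Each array was hybridised with Cy3-labelled RNA, and different animals were used for the 3 experiments of a condition. The labels give neither the promoter nor the cell type in which Smad4 was deleted.

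A cytosolic ribosome is built from a small and a large subunit, each of ribosomal RNA and many proteins, most of which are needed in equal numbers. Ribosomal protein mRNAs are among the most abundant of a cell, and most begin with a run of pyrimidines (the TOP motif), through which mTORC1 controls their translation rather than their level. Skeletal and cardiac muscle use, beside the general protein Rpl3, a copy called Rpl3l that is made in striated muscle and takes the place of Rpl3 at the peptidyl transferase centre of the large subunit. Smad4, which is not a ribosomal gene, is the shared partner of the receptor-activated Smads of the TGF-beta and BMP pathways.

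Smad4 measured 1.77, 2.05 and 1.89 in KO denervated muscle, 2.42, 2.38 and 2.19 in KO control muscle, 3.18, 3.49 and 3.28 in WT denervated muscle and 3.74, 3.59 and 4.02 in WT control muscle. These values, like all levels below, are log2 signal relative to the array's own 75th percentile. Every KO array was below every WT array. Between 49.9% and 56.4% of probes were well above background by array, and no spot was saturated. The arrays lay on 4 slides, none of which held all 4 groups. Slide 4 was scanned on another day than the rest and held no WT control array. It held WT denervated replicates 2 and 3, KO denervated replicate 2 and KO control replicate 1. In WT muscle, denervation is thus partly mixed with slide and scan day.

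Denervation changed few single ribosomal protein genes under this scaling, and the largest changes were opposite ones in Rpl3 and its muscle copy. In KO muscle 8 of 82 genes passed the test between denervated and control muscle (limma, adjusted p under 0.05), where 46.9% of all genes tested did. The 7 higher ones were Rpl3, Rpl14, Rpl22, Rpl31, Rps9, Rps21 and Rps19bp1, and the only lower one was Rpl21. The share of genes called higher was 23.7% over all genes tested, and the share called lower 23.2%. In WT muscle 9 of 82 passed, against 39.3% of all genes tested. Here Rpl3, Rpl22, Rpl28, Rpl31, Rps9, Rps27a and Rps19bp1 were higher, against 18.7% of all genes, and Rpl3l and Rpl21 were lower, against 20.6%. The counts depend on how the arrays are scaled to each other: after quantile normalization 62 genes passed in KO muscle, 61 of them higher, against 49.5% of all genes (26.8% higher, 22.6% lower). In WT muscle 45 then passed, 43 of them higher, against 41.4% of all genes (20.7% higher, 20.7% lower). Values of the authors' deposited table, which appears quantile-normalized, gave 60 calls in KO muscle, 59 of them higher, against 48.6% of all genes (25.8% higher, 22.8% lower). In WT muscle they gave 49, of which 47 were higher, against 40.5% of all genes (20.3% higher, 20.2% lower). The 2 denervation comparisons share no arrays.

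Rpl3, the general form of the large-subunit protein that reaches the peptidyl transferase centre, measured 5.02 and 5.68 in KO denervated muscle; the third array's spot was marked as an outlier by the scanner software and was left out. In KO control muscle it measured 3.67, 3.45 and 3.46. The WT denervated arrays gave 5.45, 5.41 and 5.49 and the WT control arrays 3.23, 3.26 and 3.51. Denervated and control arrays did not overlap in either genotype. The difference was 1.82 ± 0.20 (SE) in KO muscle, a 3.54-fold higher signal (limma, adjusted p = 5.5e-05), and 2.12 ± 0.18 in WT muscle, 4.35-fold higher (adjusted p = 1.28e-05). Within slides it was 2.02 in KO muscle on slide 4 and 2.23 in WT muscle on slide 1. Rpl3 passed in both genotypes under each of 23 alternatives, with differences between 1.49 and 2.15 in KO muscle and between 1.87 and 2.21 in WT muscle. Its probe, A_51_P519024, lies at chr15:79907077-79907651 on the minus strand of mouse build mm8.

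Rpl3l, the striated muscle copy, measured 3.06, 2.78 and 2.93 in KO denervated muscle and 6.22, 6.54 and 6.38 in KO control muscle. In WT denervated muscle it measured -6.62, 3.66 and 3.16, and in WT control muscle 6.38, 6.54 and 6.39. All 6 denervated arrays were thus below all 6 control arrays. The WT denervated value of -6.62 comes from a spot with a mean signal of 57.0 over a local background of 47, and it was not well above background; the other 11 arrays had mean signals between 2204 and 29296 at this probe. The probe, A_51_P243123, lies at chr17:24463068-24463336 on the plus strand of mm8.

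In KO muscle the Rpl3l difference was -3.46, a signal 11.0-fold lower in denervated muscle. That difference missed the threshold in the fit over all 12 arrays (limma, SE 2.01, adjusted p = 0.178), in which the groups share 1 spread that includes the single WT spot. With only the KO groups in the fit the adjusted p was 3.75e-05 (limma), and without the WT denervated array that holds the spot it was 6.44e-07. The values within slides were -3.45 on slide 3 and -3.44 on slide 4. In WT muscle the fitted difference was -6.37 ± 2.01 (limma, adjusted p = 0.027), and over the 2 WT denervated arrays well above background it was -3.03, 8.15-fold lower (adjusted p = 2.91e-06 without the third array). The WT call ended with only the WT groups in the fit (adjusted p = 0.0866, limma), without the filter on dim probes (0.0562) and without any 1 of the WT control arrays (0.0593 to 0.0655).

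**Figure D1:**
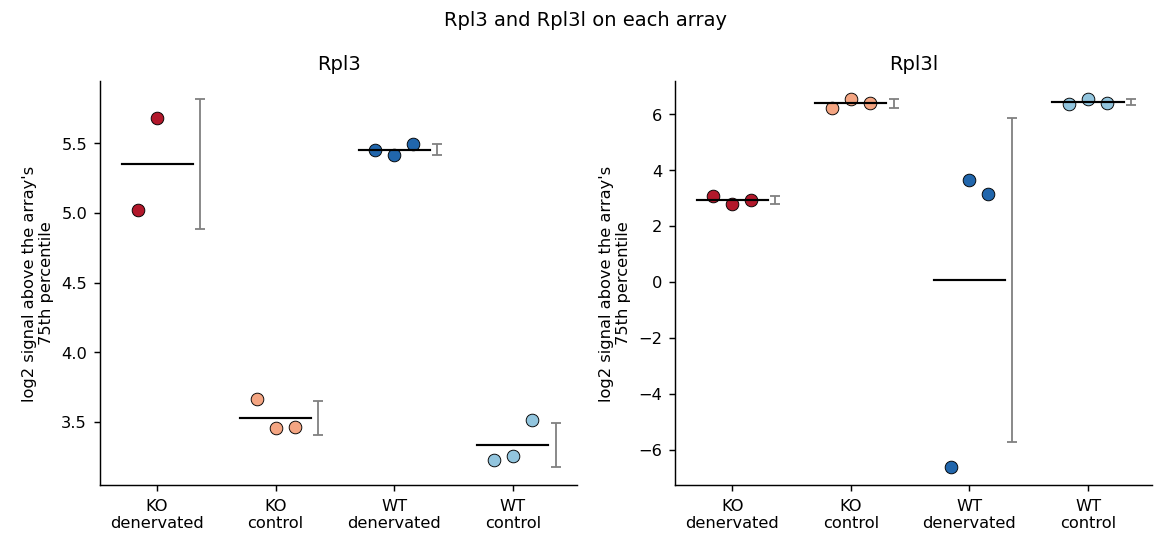
Level of Rpl3 (left) and Rpl3l (right) on each array, as log2 signal above the array's 75th percentile; points are single arrays, black lines group means and grey bars the SD. Rpl3 lies between 5.02 and 5.68 on denervated arrays and between 3.23 and 3.67 on control arrays; Rpl3l lies between 6.22 and 6.54 on control arrays and at 3.66 or below on denervated ones, with 1 WT denervated spot at -6.62.

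The other 4 second copies did not pass the test in either genotype. Rps27l, the copy of Rps27, differed by 0.36 in KO muscle (adjusted p = 0.13, limma) and by 0.50 in WT muscle (adjusted p = 0.0506); with the replicate number as a block the WT value was 0.04998. Rps27 itself differed by 0.09 and 0.22. Rpl22l1, the copy of Rpl22, differed by 0.06 in KO muscle and by -0.41 in WT muscle, with adjusted p-values of 0.852 and 0.199 (limma), and without KO denervated replicate 2 the KO value was -0.18. Rpl36al differed by 0.27 and 0.25 and Rpl7l1 by 0.13 and -0.18. The parent genes Rpl36a and Rpl7 differed by 0.11 and 0.09 in KO muscle and by 0.19 and 0.48 in WT muscle. Other Rpl36a probes, A_51_P283920 and A_52_P197926, gave 0.88 and 0.85 in KO muscle and 0.81 and 0.85 in WT muscle. The size of the Rpl36a change thus depends on the probe. The Rpl7 probe used has no value on WT control replicate 3. Other Rpl7 probes, A_51_P496480 and A_52_P346326, gave 0.30 and 0.21 in WT muscle and 0.09 and 0.10 in KO muscle.

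Among the other large-subunit proteins, Rpl31 and Rpl22 were called higher in both genotypes. Rpl31 measured -0.09, 0.23 and -0.08 in KO denervated muscle, against -0.68, -1.02 and -0.93 in KO control muscle. In WT muscle the values were 0.20, -0.09 and -0.25 on denervated arrays and -0.80, -0.67 and -0.41 on control arrays. Neither pair of groups overlapped. The differences were 0.89 ± 0.17 (limma, adjusted p = 0.00152) and 0.58 ± 0.17 (adjusted p = 0.0208), and the KO call held under all 24 alternatives. The WT call ended under 7 of 24, among them the slide as a block (adjusted p = 0.134) and the replicate number as a block (0.0603). The probe used is dim for a ribosomal protein gene, with a mean level of -0.38. A second, dimmer probe, A_51_P452820, gave 0.62 in KO muscle and 0.27 in WT muscle, and its WT groups overlapped. With the mean of both probes the WT call ended (adjusted p = 0.0862, limma).

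Rpl22, a large-subunit protein that the mouse needs to form alpha-beta T cells, measured 5.26, 5.67 and 5.33 in KO denervated muscle and 4.86, 4.94 and 4.81 in KO control muscle. WT denervated arrays gave 5.38, 5.71 and 5.35 and WT control arrays 4.82, 4.79 and 5.21. The lowest denervated array was above the highest control array in each genotype. The differences were 0.55 ± 0.17 in KO muscle and 0.54 ± 0.17 in WT muscle, with adjusted p-values of 0.0205 and 0.0268 (limma); with the replicate block the WT value was 0.0515. The probe used lies at chr4:151173849-151173908 of mm8. A second probe, at chr4:151177703-151177762, gave 0.17 and -0.04, and with the mean of both probes neither call held.

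Rpl21 was the only other gene called lower, and its 2 probes moved in opposite directions. The brighter probe, A_52_P258959, which the array annotation ties to a predicted transcript model, measured 2.26, 1.66 and 2.17 in KO denervated muscle and 3.13, 3.51 and 3.19 in KO control muscle. It measured 2.37, 2.17 and 2.24 on WT denervated arrays and 3.01, 3.28 and 3.31 on WT control arrays. Its differences were -1.25 ± 0.18 (limma, adjusted p = 0.000246) in KO muscle and -0.94 ± 0.18 (adjusted p = 0.00206) in WT muscle.

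The other Rpl21 probe, A_52_P653937, annotated to the curated transcript, measured -0.13, -0.30 and 0.15 in KO denervated muscle and -1.19, -0.94 and -0.93 in KO control muscle. On WT denervated arrays it measured 0.34, 0.08 and -0.14 and on WT control arrays -0.65, -0.91 and -0.61. Denervated arrays were above control arrays at this probe and below them at the brighter one, with no overlap at either. Its differences were 0.93 and 0.82. The probes lie at chr5:147143450-147143509 and chr5:147147040-147147099 of mm8. With the mean of both probes the differences were -0.16 and -0.06, and the calls ended (adjusted p = 0.421 and 0.794, limma), so the data give no single direction for Rpl21.

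**Figure D2:**
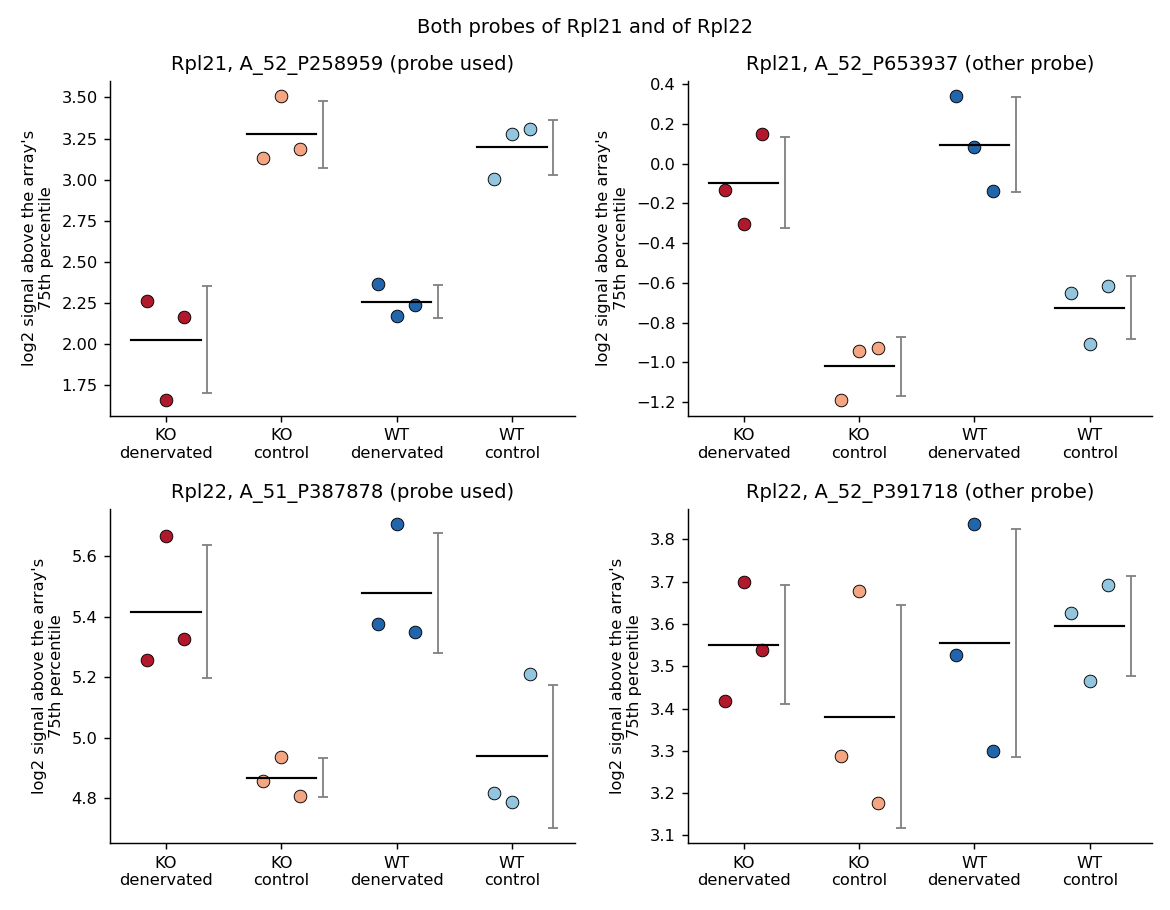
Both probes of Rpl21 (top) and of Rpl22 (bottom) on each array, as log2 signal above the array's 75th percentile; points are single arrays, black lines group means and grey bars the SD, and each panel has its own axis range. The Rpl21 probe used is lower on all denervated arrays and the other Rpl21 probe higher on all of them; the second Rpl22 probe overlaps between groups.

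Rpl14 and Rpl28 passed in 1 genotype each. Rpl14 measured -0.09, 0.45 and 0.25 in KO denervated muscle and -0.29, -0.35 and -0.75 in KO control muscle, a difference of 0.67 ± 0.20 (limma, adjusted p = 0.0165). In WT muscle it differed by 0.07 (adjusted p = 0.809), with overlapping arrays. The test of the difference between the 2 effects gave 0.60 ± 0.28 with an adjusted p of 0.535 (limma), so the effects were not shown to differ. Rpl28 differed by 0.19 in KO muscle (adjusted p = 0.347) and by 0.44 in WT muscle (adjusted p = 0.0465), and the WT call held under 9 of 24 alternatives.

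In the small subunit, Rps9 was called in both genotypes. It measured 5.15, 5.51 and 5.29 in KO denervated muscle and 4.90, 4.97 and 4.67 in KO control muscle. On WT denervated arrays it measured 5.15, 5.49 and 5.31 and on WT control arrays 4.65, 4.91 and 4.86. The groups did not overlap, and the differences were 0.47 ± 0.15 and 0.51 ± 0.15 (limma, adjusted p = 0.0278 and 0.0228). Each call ended under 6 of 24 alternatives, the WT call among them with the slide as a block (adjusted p = 0.0553) and the KO call with the array median (0.0859). Rps21 differed by 0.48 in KO muscle (adjusted p = 0.0343) and by 0.44 in WT muscle (adjusted p = 0.0566). Other Rps21 probes, A_52_P678800 and A_52_P740562, gave 0.40 and -0.03 in KO muscle and 0.68 and 0.44 in WT muscle. With the mean of the Rps21 probes the KO call ended (adjusted p = 0.418, limma). Rps27a, which is made as a fusion with ubiquitin, differed by 0.41 in KO muscle (adjusted p = 0.0544) and by 0.44 in WT muscle (adjusted p = 0.0463). The calls of Rps21 and Rps27a were fragile, holding under 14 and 8 of 24 alternatives. With the replicate block the adjusted p-values in WT muscle of Rpl28, Rps27a and Rps19bp1 were 0.0771, 0.0872 and 0.0742 (limma). With the slide as a block they were 0.18, 0.263 and 0.101, and that of Rpl22 was 0.128 (limma).

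Rps19bp1, the binding protein, measured 2.29, 2.26 and 2.14 in KO denervated muscle against 1.45, 1.83 and 1.38 in KO control muscle. In WT muscle it measured 2.21, 2.15 and 1.86 on denervated arrays against 1.63, 1.45 and 1.77 on control arrays. Denervated arrays were again above control arrays without overlap, with differences of 0.68 ± 0.16 and 0.46 ± 0.16 (limma, adjusted p = 0.00544 and 0.0423). A second probe, A_52_P474797, gave 0.50 in KO muscle and 0.21 in WT muscle, and its WT groups overlapped. The WT call of Rps19bp1 held under 10 of 24 alternatives and ended with the mean of its probes (adjusted p = 0.0924, limma).

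Neither the 5S partners, nor Rps6, nor the stalk proteins passed the test. Rpl5 and Rpl11, which with 5S RNA bind Mdm2 when ribosome assembly fails, differed by 0.26 and 0.12 in KO muscle and by 0.23 and 0.33 in WT muscle. Rps6, the substrate of the S6 kinases, differed by -0.13 and 0.17. The KO value of Rps6 rests on KO denervated replicate 1, which measured 4.27 against 5.84 and 5.58 on the other 2; without that array the difference was 0.36. The stalk proteins Rplp0, Rplp1 and Rplp2, which recruit elongation factors, differed by -0.14, -0.17 and -0.05 in KO muscle and by -0.02, 0.05 and 0.18 in WT muscle. In KO muscle the direction of Rplp1, Rplp2 and Rps23 turned with the scaling: Rplp1 and Rplp2 differed by 0.50 and 0.61 after quantile normalization, and Rps23 by 0.54, against -0.07 with the percentile scaling, and all 3 then passed the test. Without KO denervated replicate 1, under the percentile scaling, Rplp2 differed by 0.10 and Rps23 by 0.23.

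Most ribosomal protein genes sat slightly above 0. In KO muscle 64 of 82 differences were above 0, with quartiles of 0.01, 0.15 and 0.30. In WT muscle 69 of 82 were above 0, with quartiles of 0.09, 0.26 and 0.40. Within 0.5 of 0 lay 74 genes in KO muscle and 68 in WT muscle, against 46.7% and 53.3% of all genes tested. The 2 subunits gave similar medians: 0.18 (small) and 0.14 (large) in KO muscle, 0.31 and 0.25 in WT muscle. Denervated arrays lay above control arrays without overlap for 20 genes in KO muscle and 15 in WT muscle, against 28.5% and 25.9% of all genes, and below them for 3 and 2 genes, against 28.2% and 27.1%.

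**Figure D3:**
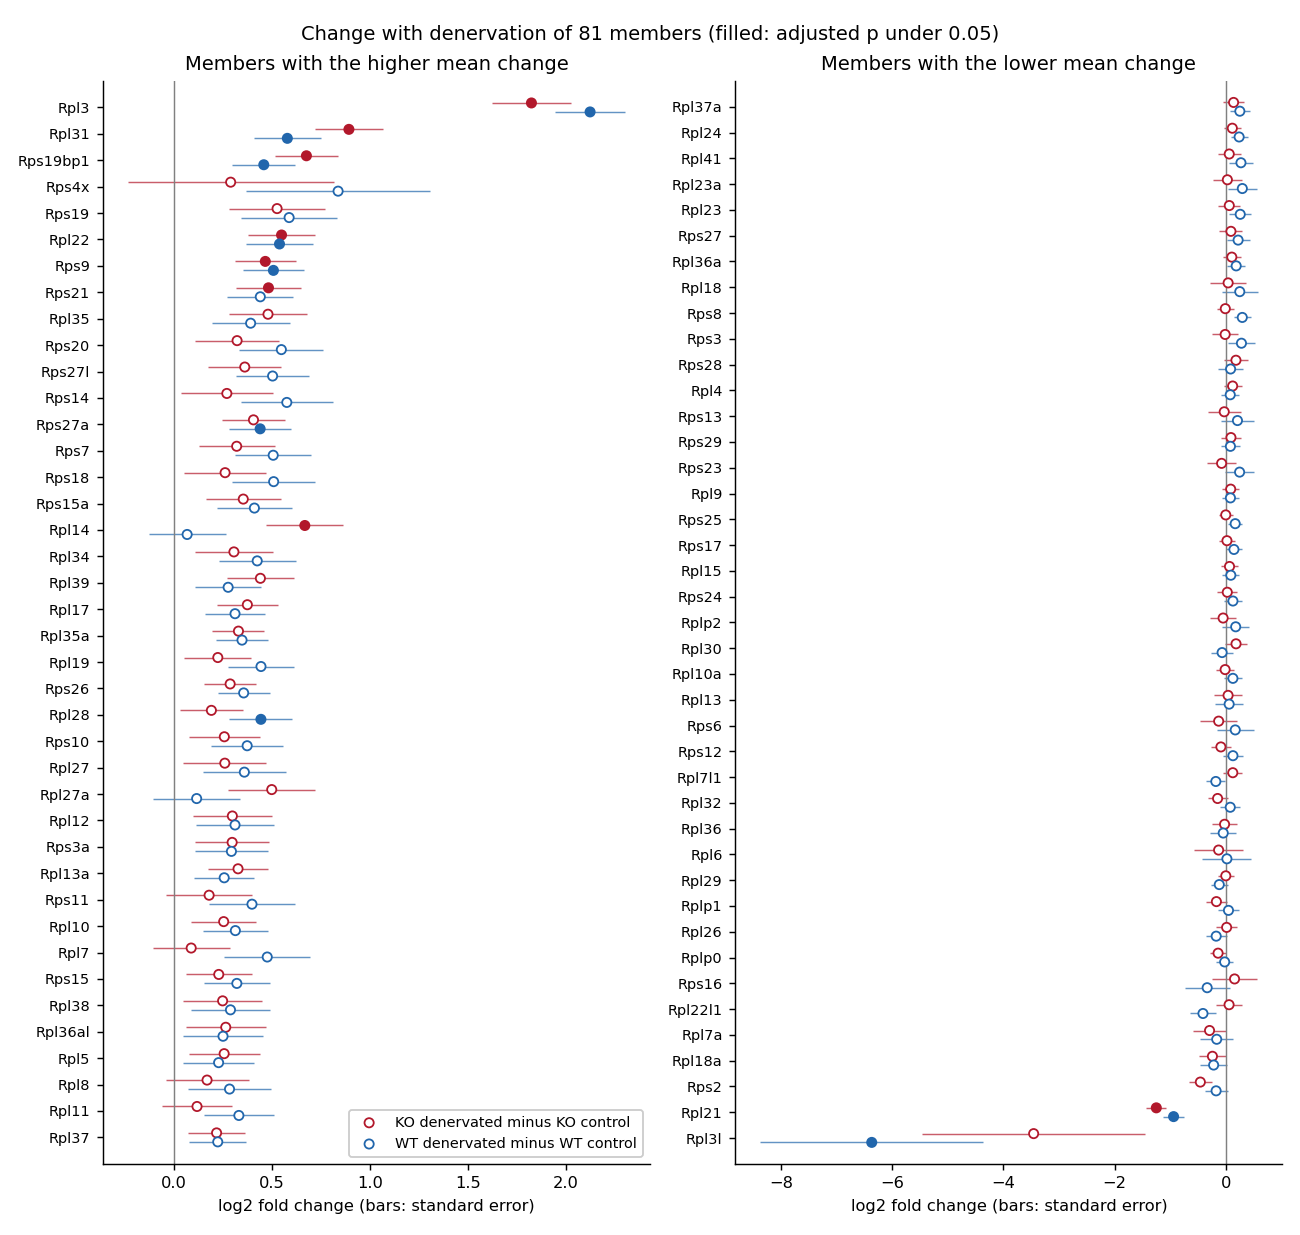
Log2 fold change of 81 of the 82 genes with denervation, in KO muscle (red, upper point of each pair) and WT muscle (blue), with standard errors; genes are ordered by the mean of both, the panels have different axis ranges, and filled points have an adjusted p under 0.05. Most points lie between 0 and 0.5, Rpl3 stands apart on the higher side and Rpl3l and Rpl21 on the lower side.

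The shared shift was of the size of the spread between arrays. Each gene was centred on its mean over the 12 arrays, and the median over the 82 genes was taken on each array. It was -0.11, 0.29 and 0.04 on KO denervated arrays and -0.08, 0.00 and -0.23 on KO control arrays. WT denervated arrays gave -0.02, 0.38 and 0.15 and WT control arrays -0.25, -0.23 and 0.18. The groups overlapped in both genotypes. The pooled SD between arrays of a group was 0.20, while the same median over all genes stayed between -0.03 and 0.07. Within slides, where 1 array stands against 1, denervated minus control was 0.27 (slide 3) and 0.36 (slide 4) in KO muscle and 0.21 (slide 1) in WT muscle.

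**Figure D4:**
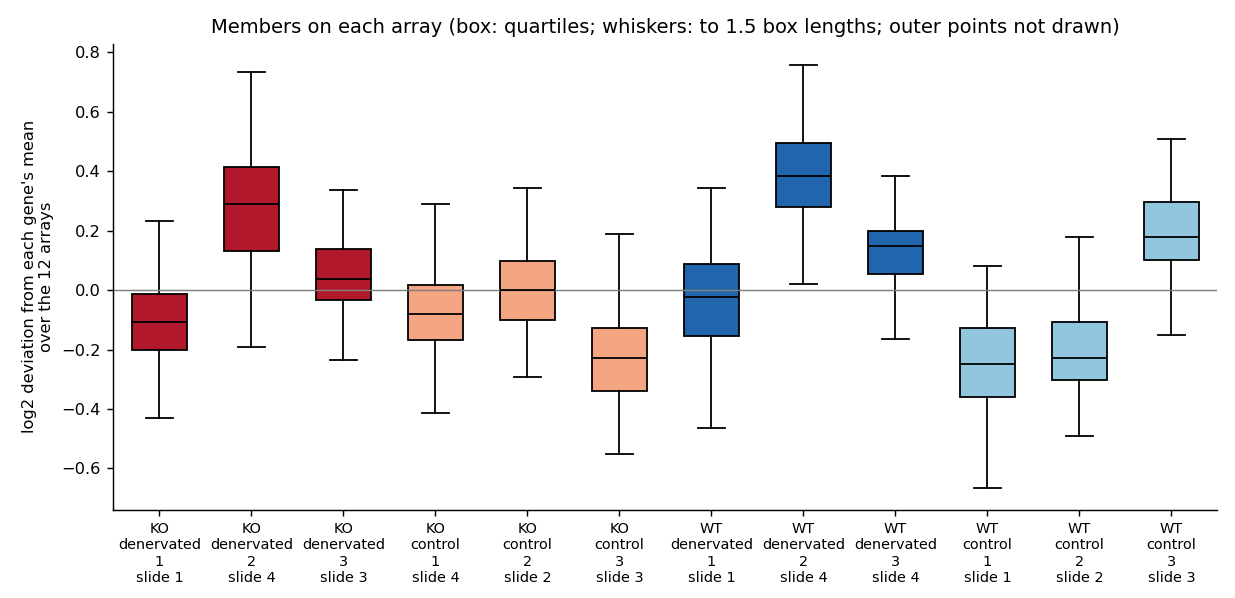
Deviation of the 82 genes from their own mean over the 12 arrays (log2, y axis) for each array, with its group, replicate and slide on the x axis; boxes are quartiles over genes, the line the median, whiskers reach to the last value within 1.5 box lengths. The medians run from -0.25 to 0.38, and the denervated arrays of both genotypes overlap the control arrays.

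The ribosomal protein genes are bright, and other bright genes gave a median below 0 with denervation. The 548 other genes with a mean level of at least 5.1, the lower quartile of the ribosomal protein genes, had a median difference of -0.44 in KO muscle and -0.20 in WT muscle. The ribosomal protein genes had 0.15 and 0.26. After quantile normalization the medians of the bright genes were -0.04 and -0.06 and those of the ribosomal protein genes 0.56 and 0.41. Scaling to the array median gave 0.09 and 0.26 for the ribosomal protein genes, and normexp background correction gave 0.07 and 0.07, where the medians of all genes were 0.06 and 0.07. The medians were above 0 under the 5 scalings tried, and with normexp they lay close to those of all genes. The number of genes called was not stable. These bright genes were chosen after the data had been seen.

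**Figure D5:**
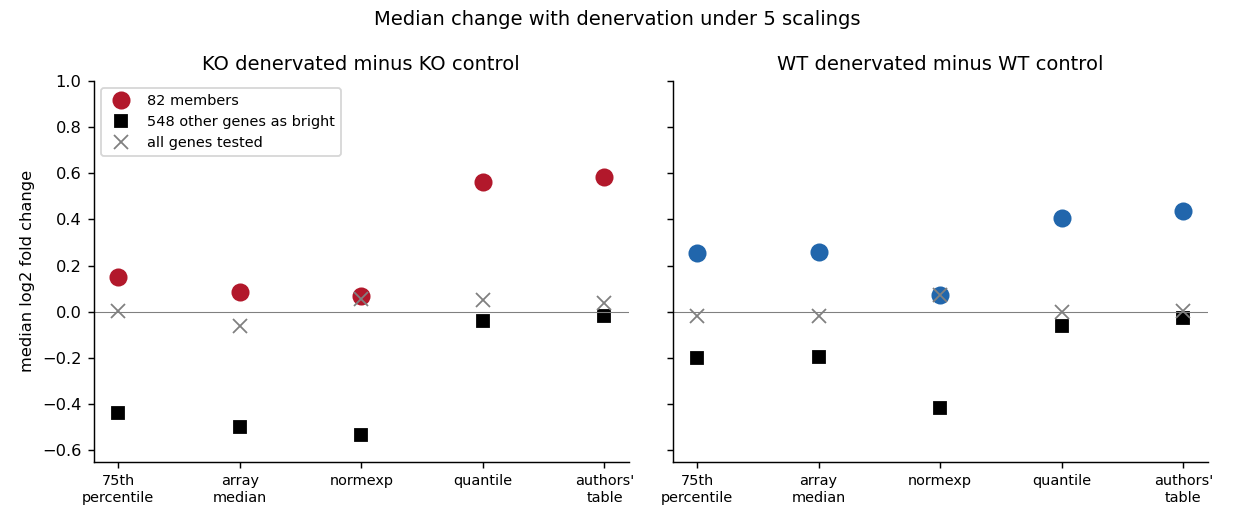
Median log2 fold change with denervation (y axis) under 5 ways of scaling the arrays, in KO muscle (left) and WT muscle (right), for the 82 ribosomal protein genes (circles), 548 other genes at least as bright as their lower quartile (squares) and all 15278 genes tested (crosses). The circles lie above the squares under each scaling and reach 0.56 and 0.59 in KO muscle under quantile normalization and in the authors' table.

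The upstream sequence of some called genes is shown to set the start of Rpl3l beside those of general ribosomal protein genes. A promoter entry of RefSeq (GRCm38.p6) was found for 62 of 82 genes, and none for Rpl3 or Rpl21. Each line gives 60 bases before and 20 after the annotated start, 5′ to 3′. Capitals mark a run of at least 8 pyrimidines within 15 bases of the start, or, in Rpl3l, the E-box letters CAGCTG that myogenic factors can bind. Rpl22 and Rps21 have no such run and no capitals.
Rpl3l: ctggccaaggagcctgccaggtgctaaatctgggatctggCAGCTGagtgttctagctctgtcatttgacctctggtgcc
Rpl31: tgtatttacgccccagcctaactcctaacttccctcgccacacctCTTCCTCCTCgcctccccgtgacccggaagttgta
Rps9: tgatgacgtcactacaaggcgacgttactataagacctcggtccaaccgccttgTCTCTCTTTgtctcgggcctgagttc
Rpl28: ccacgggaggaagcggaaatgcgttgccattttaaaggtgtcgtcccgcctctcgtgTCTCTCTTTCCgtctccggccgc
Rpl22: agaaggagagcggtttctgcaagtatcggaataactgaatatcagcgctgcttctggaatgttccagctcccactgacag
Rps21: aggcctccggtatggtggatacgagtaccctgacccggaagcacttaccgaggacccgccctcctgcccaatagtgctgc
Rpl14: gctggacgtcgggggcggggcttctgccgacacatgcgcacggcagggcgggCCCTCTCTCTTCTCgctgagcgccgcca
The windows are chr17:24727766-24727845, chr1:39367791-39367870, chr7:3703981-3704060, chr7:4792905-4792984, chr4:152324376-152324455, chr2:180257319-180257398 and chr9:120571457-120571536, all on the plus strand. A pyrimidine run of that kind, read on the gene's strand, stood in 41.0% of 61 ribosomal protein promoters and in 11.8% of 27025 promoters in all. The ETS-type letters CGGAAG, on either strand of the 300 bases around the start, stood in 67.2% against 17.2%, and CAGCTG in 4.92% against 16.1%. The longest pyrimidine run near the Rpl3l start was 5 bases, as it was for Rpl22, and that of Rps21 was 7. CGGAAG was found in the 300 bases of Rpl31 and Rps21, and not in those of Rpl3l, Rpl22, Rps9, Rpl28 or Rpl14. These matches describe letters and do not show binding.

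Whether loss of Smad4 moved the ribosomal protein genes was asked in each condition. In denervated muscle no ribosomal protein gene passed between KO and WT (limma, 0 of 82 against 2.16% of all genes, 0.949% higher and 1.21% lower), although 2 had an unadjusted p under 0.05. These were Rpl22l1, with a difference of 0.66 ± 0.24 (adjusted p = 0.199), and Rpl14, with 0.46 ± 0.20 (adjusted p = 0.273). The highest difference, 2.86 in Rpl3l, rests on the single WT spot and was -0.48 without that array. The lowest, -0.36 in Rps23, rests on KO denervated replicate 1 and was -0.06 without it. The median was -0.11 with the percentile scaling and 0.12 after quantile normalization, so its sign depends on the scaling. KO arrays lay above WT arrays without overlap for 2 genes and below them for 5, against 10.1% and 11.5% of all genes.

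In control muscle 0 of 82 passed either, against 0.00655% of all genes, which is Smad4 alone, and no ribosomal protein gene had an unadjusted p under 0.05. No ribosomal protein gene separated the KO from the WT arrays, against 3.72% (KO above) and 4.86% (KO below) of all genes. The median difference was -0.02, with 80 of 82 genes within 0.5 of 0. The lowest difference was -0.25, in Rpl31. Within slides the median was 0.20 on slide 2 (77 of 81 genes above 0) and -0.42 on slide 3 (0 of 81), so single array pairs shifted nearly all these genes together in either direction. For the interaction of denervation and genotype 0 of 82 passed in limma, against 0.183% of all genes (0.0982% positive, 0.0851% negative), and 0 of 82 had an unadjusted p under 0.05. These tests cover only the spread of 3 arrays a group and do not show that the genotypes are alike.

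The ribosome components whose names escape the rule were not called. Rpsa, Fau and Gnb2l1 (the gene of Rack1) differed by -0.04, 0.41 and 0.12 in KO muscle and by 0.22, 0.59 and 0.15 in WT muscle (limma, adjusted p of 0.0981 or higher). Of 21 translation factors and other TOP mRNAs tested, 3 were higher and 2 lower in KO muscle and 2 higher in WT muscle. Over all genes tested, 23.7% were higher and 23.2% lower in KO muscle, and 18.7% and 20.6% in WT muscle. Eef1a1, the elongation factor whose place the muscle form Eef1a2 takes in adult fibres, was 1.40 higher in KO muscle and 1.67 higher in WT muscle (limma, adjusted p = 2.51e-05 and 9.68e-06). Eif4b, a helper of the mRNA helicase, was 0.56 and 1.09 higher (adjusted p = 0.0387 and 0.00143).

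Ribosome biogenesis factors, which process ribosomal RNA and assemble subunits, are not part of the ribosome. Of 39 tested, 13 were higher and 4 lower in KO muscle (median 0.29), beside 23.7% and 23.2% of all genes and a median over all genes of 0.00. In WT muscle 15 were higher and 1 lower (median 0.33), beside 18.7% and 20.6% of all genes and a median of -0.02. Fbl, the rRNA methyltransferase fibrillarin, was 0.93 and 0.70 higher, the processome subunit Utp18 1.42 and 1.67, and the pre-60S remodelling ATPase Mdn1 0.93 and 0.76 (limma, adjusted p of 0.00269 or lower in each). Of 21 subunits and factors of RNA polymerases I and III, 5 were higher and 4 lower in KO muscle, and 2 higher and 3 lower in WT muscle. These polymerase counts were near or below the same shares of all genes. Maf1, a repressor of polymerase III, differed by -0.70 and -0.63, and Taf1b, a polymerase I factor, was 0.66 and 0.81 higher.

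Of 20 regulators of ribosome synthesis in the mTORC1 and Myc pathways, 6 were called higher and 5 lower in KO muscle. The shares over all genes tested were 23.7% and 23.2% there. In WT muscle 6 were higher and 6 lower, beside 18.7% and 20.6% of all genes. The cap-binding protein gene Eif4e differed by -0.88 and -1.14 and the translation repressor gene Eif4ebp2 by -1.36 and -0.97, all passing the test. Of 12 targets of p53, whose inhibitor Mdm2 is bound by free Rpl5 and Rpl11, 6 were higher and 3 lower in KO muscle and 7 and 3 in WT muscle. Cdkn1a, the cell cycle inhibitor p21, was 4.79 and 5.04 higher, and the stress gene Gadd45a, which also passed in KO muscle, was 3.92 higher in WT muscle, while Ccng1 differed by -0.94 and -1.05 and Polk by -1.73 and -1.31. Mdm2 was 1.74 and 0.85 higher and differed between KO and WT denervated muscle by 0.87 (limma, adjusted p = 0.0188).

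Markers of other cells in whole muscle also moved, beside 23.7% of all genes called higher and 23.2% lower in KO muscle. In WT muscle these shares were 18.7% and 20.6%. Levels were summed over each marker list, on a linear scale in units of the array's 75th percentile. Macrophage markers (15 tested, 7 higher in KO and 2 in WT muscle) summed to 48.4 to 57.5 on KO denervated and 21.4 to 41.7 on KO control arrays, and to 46.3 to 46.5 on WT denervated and 27.4 to 32.6 on WT control arrays. Fibre markers (12 tested, 10 lower in KO and 4 in WT muscle) summed to 1764 to 2393 on KO denervated and 3692 to 3996 on KO control arrays, and to 2105 to 3084 on WT denervated and 2681 to 3586 on WT control arrays. Endothelial markers (10 tested, 8 and 7 lower) summed to 18.9 to 24.1 against 38.5 to 40.7 in KO muscle and to 15.8 to 24.1 against 35.5 to 43.0 in WT muscle. Of 10 Schwann cell markers 6 were lower and 1 higher in KO muscle, and 5 and 1 in WT muscle. Of 8 satellite cell markers 2 were higher in each genotype, and of 10 fibroblast markers none was called in KO muscle and 1 was lower in WT muscle. Of 6 erythrocyte markers 4 were above the filter, and 4 were lower in KO muscle (median -2.12) and 3 in WT muscle (median -1.34). They summed to 18.4 to 44.5 on KO denervated and 68.8 to 142.4 on KO control arrays, and to 40.1 to 93.8 on WT denervated and 64.1 to 181.9 on WT control arrays. Of 11 T and B cell markers 5 were above the filter, 1 higher and 2 lower in KO muscle and 2 lower in WT muscle, and of 10 cycling cell markers 6 were, with 1 higher in KO muscle and none called in WT muscle. The part of these markers in the changes of the ribosomal protein genes was not tested, and fewer cells of a type and less RNA per cell cannot be told apart in whole muscle.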

How the data were processed

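Per the file headers, each deposited array file gives spot intensity from Agilent Feature Extraction 10.7.3.1 (the submitters' processing notes name 10.5.1.1), background-subtracted and detrended, with no normalization between arrays. The authors' deposited table of processed values holds linear intensity; its method is not given in the sources used here, and its quartiles hardly vary between arrays. Here control spots were left out, outlier spots set missing, spots of a probe averaged, and the array's 75th percentile of log2 intensity subtracted. Probes well above background on all 3 arrays of at least 1 group were kept (22524 of 41174), and the brightest one stood for its gene. limma 3.58.1 in R 4.3.3 (lmFit, eBayes, two-sided) was fitted to the 12 arrays together, one mean per group, without covariates; Benjamini-Hochberg adjustment ran over 15278 genes, with 8 residual and 3.16 prior degrees of freedom. The fit was tested on simulated data. Tables and figures were made in Python 3.11.15 (numpy 2.4.6, pandas 2.3.3, matplotlib 3.10.9). With 3 arrays a group, their number limits the precision; the design text says that each used different animals.

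The genes named are those called, the second copies with their parents, the stalk, 5S, Rps6 and Rps27a genes, the extremes of comparisons without calls, and up to 4 genes of each list by smallest adjusted p, besides Smad4. The members and the gene lists were chosen with earlier results of these data known. Deviations of same-numbered WT denervated and WT control arrays correlated with r = 0.30, 0.11 and 0.23 across genes. In KO muscle r was 0.09, 0.02 and 0.17. The main fit did not pair arrays, and the replicate number entered only as a block in an alternative fit. Positions of probes are on mm8, as in the files. Alternatives covered the scaling, background correction, filter, probe choice, names, slide, replicate block, groups fitted and each array left out. The values of some genes are not reported here.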

Additional observations from a re-analysis of the deposited data

How the results depend on the processing

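The number of genes called with denervation was the result most open to processing. Under quantile normalization it was 62 in KO and 45 in WT muscle, and with the authors' values it was 60 and 49. Scaling to the array median gave 5 and 5, and normexp 4 and 3. The mean of a gene's probes gave 13 in KO muscle; no filter on dim probes gave 3 in WT muscle, the slide as a block 3 and only the groups compared 5. Leaving out 1 array gave 4 to 12 calls in KO muscle and 2 to 17 in WT muscle; without WT control replicate 3 there were 17, without replicate 1 of that group 2, without replicate 2 of it 3 and without WT denervated replicate 2 there were 4. In KO muscle there were 5 calls without KO denervated replicate 2 and 4 without KO control replicate 3. With the replicate block 7 genes were called in KO muscle and 6 in WT muscle. The labels do not say whether a replicate number pairs arrays. In KO muscle Rps21 was lost under that block (adjusted p = 0.0535, limma). The cause of these shifts was not tested.

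The median difference in KO muscle was 0.56 under quantile normalization and 0.59 in the authors' table. Between KO and WT denervated muscle it was 0.12 and 0.10, and for the interaction 0.13 and 0.12, against -0.11 and -0.10 with the percentile scaling. In KO muscle Rplp1, Rplp2 and Rps23 turned to 0.50, 0.61 and 0.54 under quantile normalization and to 0.48, 0.62 and 0.52 in the authors' table. No member was called between genotypes or for the interaction under any alternative tried. A pair of alternatives was added after the data had been seen: with 4 single spots of slide 1 set missing, 9 genes were called in each genotype, and without Rps19bp1 there were 7 and 8. Rpl3 passed under every alternative that tested it; requiring signal well above background on all 12 arrays removed it and Rpl3l.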

Other observations

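Of 46 further probes kept for 37 of the genes, 34 had the sign of the probe used in KO muscle and 34 in WT muscle. The 12 of them with a mean level under 0 had a median difference of 1.03 in KO muscle and 0.32 in WT muscle, while the probes used for the same genes had 0.12 and 0.19. In KO muscle 6 of these 12 dim probes were above 1, and in WT muscle 1 was. The 34 brighter further probes had medians of 0.15 and 0.28. These further probes were looked at after the data had been seen, and no call was taken from them. The probes used for Rpl14 and Rpl31, both called above, also had mean levels under 0, of -0.21 and -0.38.

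Spots of 3 further genes, named after their values were seen, stood apart from their group. Rps16 measured 5.39 on WT denervated replicate 1, Rps4x measured 4.63 on WT control replicate 1, and these spots lay on slide 1, as did the dim Rpl3l spot. Rps6 measured 4.27 on KO denervated replicate 1, also on slide 1, against 5.84 and 5.58 on the other KO denervated arrays. This Rps6 spot was not among the 4 spots of slide 1 set missing in the alternative given above.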
